A study of Mus musculus with 14 samples.

Results

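Adult mouse prostate cells were sorted by the amount of the antigen Sca-1 on their surface, and their gene expression was followed along 3 gates, Sca-1Neg, Sca-1Lo and Sca-1Hi. This ordered series holds 11 of the study's 14 arrays: 4 of Sca-1Neg, 4 of Sca-1Lo and 3 of Sca-1Hi cells. The other 3 arrays, of the urogenital sinus epithelium (UGE) of embryos at day 16, have no gate and enter only where they are named. All adult samples came from male mice of the strain C57BL with a labelled age of 6 to 8 weeks (C57BL/6 of 6 weeks in the study's methods), and no treatment or altered gene is named for any of them. By the study's methods the cells were taken from the part of the prostatic ducts nearest the urethra, and the gates held the brightest cells, those of medium to low fluorescence and those without label. The study takes the Sca-1Hi gate as enriched in stem cells, the Sca-1Lo gate as enriched in transit-amplifying cells and the Sca-1Neg gate as the most mature cells. A gate is a range of fluorescence and not a cell type. No label says whether the samples of a gate came from separate mice or separate sorts, so the p-values measure only the spread between these samples, part of which may be technical. In such bulk samples, fewer cells of a type and less RNA per cell cannot be told apart.

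Sca-1 is a small protein of the Ly6 family that is anchored to the outer cell membrane, and it is known from stem and progenitor cells of several mouse tissues as well as from the endothelium of blood vessels. The prostatic duct is lined by luminal cells, which secrete the fluid of the gland, above basal cells, which express the keratins Krt5 and Krt14 and the transcription factor Trp63. Smooth muscle, fibroblasts, capillaries and macrophages lie around the ducts, so that a sort on a single antigen can bring cells of several lineages into each gate.

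The signals were PLIER values on a linear scale, and the medians of the 11 adult arrays lay between 67.5 and 81.0. They were taken to log2, and the test took in the 40612 probe sets that exceeded a signal of 20 on 1 or more adult arrays, which stand for 17107 genes. A line was fitted with limma over the gates, scored 0, 1 and 2, and the change over both steps along that line is called the total change. The first step is Sca-1Lo minus Sca-1Neg and the second step is Sca-1Hi minus Sca-1Lo, both from the 3 gate means. A gene passed a test at a Benjamini-Hochberg adjusted p under 0.05, over all probe sets, together with a log2 change over 0.81, the fold minimum of the study's methods. With scores of 0, 1 and 2 the trend is close to a comparison of Sca-1Hi with Sca-1Neg, and it does not by itself show a stepwise change. The steps share the Sca-1Lo arrays with opposite sign, so that an error in the Sca-1Lo mean moves them in opposite directions.

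The arrays did not differ by gate alone. The study numbers its replicates in one of its tables, and arrays numbered 1 and 2 deviated from their gate means together, as did those numbered 3 to 5: the median correlation of these deviations was 0.394 between arrays of the same set and -0.351 between sets. What the numbers stand for is not stated. Each gate holds arrays of both sets, but the Sca-1Hi gate has only 1 array of the lower numbers. The 3'/5' ratio of the Gapdh control probe sets, a measure of RNA integrity, was 1.66 to 2.75 on the log2 scale in Sca-1Neg, 1.98 to 3.22 in Sca-1Lo and 3.07 to 3.48 in Sca-1Hi samples. Its slope was 0.49 per gate (exact two-sided permutation test over 11550 arrangements, p = 0.0270, or 0.0540 adjusted over Gapdh and Actb), and that of Actb was 0.27 (exact permutation p = 0.129). The part of RNA integrity in the results that follow was not tested.

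Ly6a, which encodes Sca-1, followed the sort. Its signals were 856, 620, 505 and 342 in Sca-1Neg, 5820, 3130, 8348 and 8505 in Sca-1Lo, and 9358, 10250 and 10880 in Sca-1Hi samples, so that no array of a gate overlapped those of another. The first step was 10.9-fold (limma, adjusted p = 0.00106), and the second was 1.69-fold and did not pass its test (adjusted p = 0.599). Since the cells were sorted on this protein, its level is a check of the labels and not a finding. On the mRNA level 82.0% of the log2 change lay at the first step.

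Over the gates 1771 of the 17107 genes passed the trend test, or 10.4%, of which 1013 were higher (5.92%) and 758 lower (4.43%) toward Sca-1Hi. At the first step 288 genes passed (1.68%), 221 higher and 67 lower. At the second step only 11 passed (0.0643%), 10 higher (0.0585%) and 1 lower (0.00585%), and this split was 13 higher and 6 lower with the 2 sets of study numbers as a block. Over all 40612 probe sets the shares past the trend, the first and the second step were 11.1%, 1.29% and 0.0295%, and 1.32% had their arrays in full order. No gene passed the test for a stepwise change, which needs both steps at once and is adjusted over all probe sets (unadjusted p under 0.05 in 314 genes, smallest adjusted p 0.376), and no gene passed the test of the bend, the difference between the steps (617 genes at an unadjusted p under 0.05, smallest adjusted p 0.425). The test of the bend is the one that would show a jump at 1 step only, so a gene with 1 step past its own test and not the other is described here by its values and is not shown to jump. With that block, 5 genes passed as a jump at the first step (Aqp1, Esm1, Exoc3l2, Myct1 and Spon2), and at the second step Nccrp1 jumped upward and Spon2 downward. By the sign of their steps Aqp1, Esm1 and Spon2 then also counted as peaks in Sca-1Lo and Nccrp1 as a trough, and still no gene passed as stepwise.

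Among the 1013 genes with a higher trend, 206 passed at the first step alone, 6 at the second step alone, 4 at both and 797 at neither. Among the 758 with a lower trend, 60 passed at the first step alone, 1 at the second step alone, none at both and 697 at neither. The share of the log2 change that lay at the first step, a description with no test, had a median of 62.4% in the higher and 58.0% in the lower genes. Signals under 20 entered this share as measured. By this share 501 higher genes (49.5%) were graded, with between 33.3% and 66.7% of the change at the first step, 395 (39.0%) changed mostly at the first step and 93 (9.18%) mostly at the second. Of the lower genes 401 (52.9%) were graded, 258 (34.0%) changed mostly at the first and 85 (11.2%) mostly at the second step. In 230 genes (1.34%) the 11 arrays were in full order, with no overlap between any gates, 162 of them upward (0.947%) and 68 downward (0.397%).

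**Figure D1:**
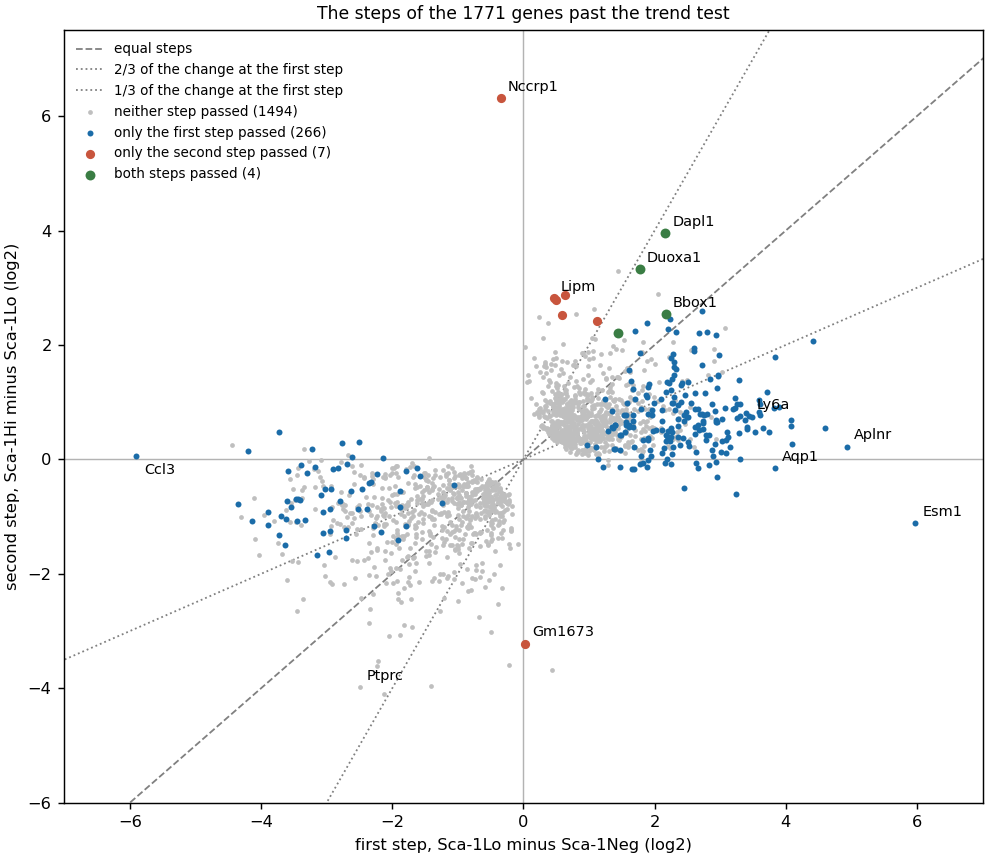
Each point is one of the 1771 genes past the trend test, with its first step (Sca-1Lo minus Sca-1Neg) on the horizontal and its second step (Sca-1Hi minus Sca-1Lo) on the vertical axis, both as log2 differences of gate means. Blue points (266) passed at the first step alone, red points (7) at the second step alone and green points (4) at both, and among called genes the first step reaches 5.98 in Esm1 and the second 6.32 in Nccrp1. Both of these steps start from signals under 20, which are plotted as measured.

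The 4 genes that passed at both steps taken one at a time were Dapl1, Bbox1, Duoxa1 and Psapl1. Dapl1 encodes a small protein related to a death-associated protein and is found in stratified epithelia. It had signals of 38.5, 29.2, 52.7 and 41.4 in Sca-1Neg, 175, 103, 248 and 220 in Sca-1Lo, and 2220, 2679 and 3493 in Sca-1Hi samples. It was 4.47-fold higher in Sca-1Lo than in Sca-1Neg cells (log2 2.16 ± 0.31 SE, adjusted p = 0.00688) and 15.5-fold higher in Sca-1Hi than in Sca-1Lo cells (3.96 ± 0.34, adjusted p = 0.00338), with 35.3% of the change at the first step. No gate overlapped another. The second step of Dapl1 lost its call only without Sca-1Hi replicate 3, where it was 3.78.

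Bbox1, the enzyme that makes carnitine from gamma-butyrobetaine, had signals of 15.5, 16.9, 10.7 and 7.94 in Sca-1Neg, 53.1, 35.95, 80.5 and 59.4 in Sca-1Lo, and 267, 307 and 401 in Sca-1Hi samples. All 4 Sca-1Neg signals were under 20, so the first step is given as at least 2.75-fold, with such signals set to 20, as for every later "at least". The second step of Bbox1 was 5.83-fold (adjusted p = 0.0380), and 46.1% of its log2 change lay at the first. That share takes the Sca-1Neg signals under 20 as measured and is therefore uncertain. Psapl1, which encodes a protein like prosaposin, had 30.8, 41.6, 46.3 and 28.0 in Sca-1Neg, 102, 104, 132 and 65.5 in Sca-1Lo, and 377, 584 and 412 in Sca-1Hi samples. Its steps were 2.72-fold (adjusted p = 0.0334) and 4.60-fold (adjusted p = 0.0432). These calls lay near the threshold: without 1 array the second step lost its call in 8 of 11 cases for Bbox1 (log2 2.34 to 2.68) and 8 of 11 for Psapl1 (2.01 to 2.33), and the first step of Psapl1 in 7 of 11 (1.30 to 1.51).

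Duoxa1 and Duox1 act together: Duox1 is an NADPH oxidase that makes hydrogen peroxide at the cell surface, and Duoxa1 is the factor that brings it there. The genes lie side by side on chromosome 2, on opposite strands, with starts 1942 bases apart (RefSeq, GRCm38.p6). Duoxa1 had signals of 16.4, 10.3, 21.6 and 10.2 in Sca-1Neg, 57.8, 40.3, 58.0 and 37.8 in Sca-1Lo, and 285, 756 and 500 in Sca-1Hi samples, which is at least 2.33-fold at the first step (adjusted p = 0.0358) and 10.01-fold at the second (adjusted p = 0.0133). Duox1 had 54.3, 37.1, 51.2 and 49.5 in Sca-1Neg, 74.0, 59.7, 67.2 and 68.5 in Sca-1Lo, and 301, 671 and 500 in Sca-1Hi samples. Both genes kept the 11 arrays in full order, and both rose at the second step. The first step of Duox1 was 1.41-fold and did not pass (adjusted p = 0.499), and 15.1% of its change lay there, against 34.8% for Duoxa1. The share of Duoxa1 rests on Sca-1Neg signals that were mostly under 20. The difference between the first steps of the 2 genes was not tested. Without 1 array, Duoxa1 lost its first-step call in 7 of 11 cases (log2 1.63 to 1.89) and its second-step call in 4 (2.99 to 3.42), and Duox1 its second-step call without Sca-1Hi replicate 2 or 3 (2.53 and 2.74). Duoxa2, the partner of the other dual oxidase, changed by 0.80 and -0.12 at the steps, and neither passed.

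Genes with graded change and no call at the second step were headed by Krt4, Gldc and Clca1, which had the smallest p-values of the stepwise test after Dapl1 and Bbox1 (adjusted p = 0.483, not passed). Krt4, a keratin of wet stratified epithelia, had signals of 451, 364, 318 and 187 in Sca-1Neg, 2682, 1363, 3159 and 1429 in Sca-1Lo, and 9329, 9168 and 9487 in Sca-1Hi samples. It was 6.41-fold higher at the first step (adjusted p = 0.00335) and 4.63-fold at the second (adjusted p = 0.0983), and 54.8% of its change lay at the first. Gldc, the decarboxylase of the glycine cleavage system, stood under 20 on all Sca-1Neg arrays, at 43.0 to 73.1 in Sca-1Lo and at 142 to 199 in Sca-1Hi samples (at least 2.78-fold and 3.004-fold). Clca1, a secreted regulator of calcium-activated chloride channels, stood at 10.1 to 22.9, 85.7 to 201 and 428 to 585 (at least 5.64-fold and 4.49-fold). The first steps of Krt4, Gldc and Clca1 kept their call without any 1 array.

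**Figure D2:**
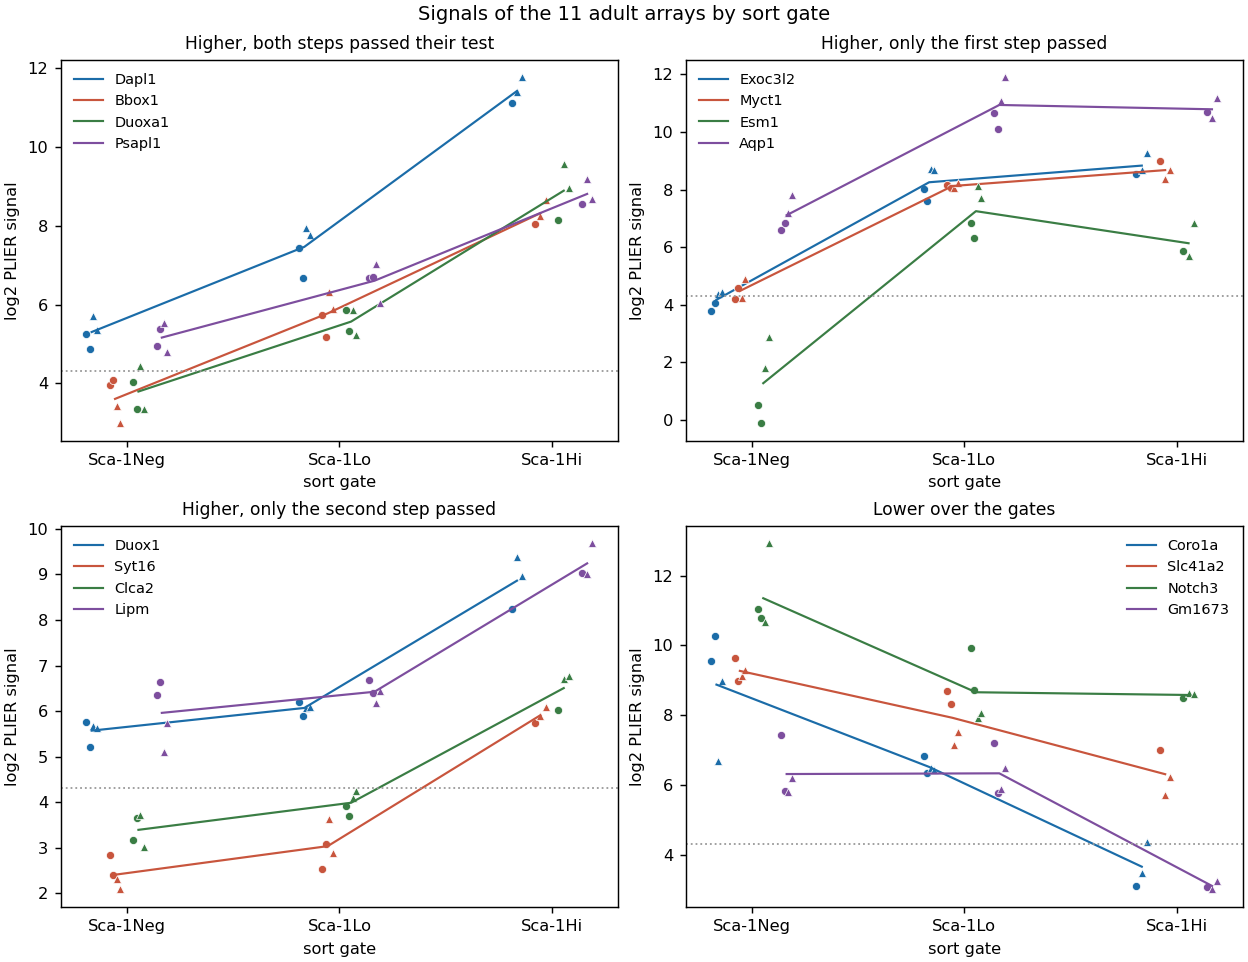
Log2 PLIER signals (vertical axis) of 16 genes on the 11 adult arrays, by gate from Sca-1Neg to Sca-1Hi, with circles for study numbers 1 and 2, triangles for 3 to 5, lines through the gate means and a dotted line at a signal of 20. Dapl1, Bbox1, Duoxa1 and Psapl1 climb at both steps, Exoc3l2, Myct1, Esm1 and Aqp1 climb steeply at the first, and at the second the means of Exoc3l2 and Myct1 are somewhat higher and those of Esm1 and Aqp1 lower, Duox1, Syt16, Clca2 and Lipm are nearly level at the first and climb at the second, and of the lower genes Gm1673 is level until the second step.

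The cornified envelope is the cross-linked protein shell that squamous cells lay under their membrane, and of the 39 gene lists this one had the most calls at the second step. Of 32 measured genes of the cornified envelope and squamous differentiation, 14 were higher and 1 lower in the trend (background 5.92% and 4.43%), 5 were higher at the first step and 4 at the second. The 4 at the second step were Dapl1, Nccrp1, Padi4 and Lipm, against 10 of all 17107 genes (0.0585%). All 39 gene lists were written with earlier results of these data known, so counts of this list describe it and are no independent support. The median change of the list was 0.62 at the first and 0.44 at the second step on the log2 scale, beside 0.08 and -0.04 over all genes. The mean log2 signal of the list ran from 5.34 to 5.79 on the Sca-1Neg arrays, from 6.21 to 6.67 on the Sca-1Lo arrays and from 7.22 to 7.63 on the Sca-1Hi arrays, so that every array stood in gate order. Without any 1 array the number of members with a higher trend lay between 9, without Sca-1Hi replicate 2, and 14.

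Among the members, Sprr1a, a small proline-rich protein of the envelope, had signals of 120, 89.8, 180 and 36.1 in Sca-1Neg, 690, 519, 385 and 243 in Sca-1Lo, and 2499, 2205 and 2325 in Sca-1Hi samples. Its steps were 4.68-fold (adjusted p = 0.0400) and 5.47-fold (adjusted p = 0.201), and the first lost its call in 10 of 11 leave-outs (log2 1.78 to 2.5). Scel, which encodes sciellin, stood at 12.7 to 54.2, 102 to 225 and 586 to 735, with steps of at least 4.49-fold and 4.66-fold. Grhl3, a transcription factor needed for the epidermal barrier in mice, stood under 20 on all Sca-1Neg arrays, at 21.7 to 48.6 in Sca-1Lo and at 123 to 189 in Sca-1Hi samples. Sprr1a, Scel and Grhl3 kept the arrays in full order. Ivl, which encodes involucrin, stood at 2.63 to 22.8, 21.9 to 102 and 224 to 328, so that only the Sca-1Neg and Sca-1Lo gates met. Calml3, a calmodulin-like protein of epithelia, changed mainly at the first step (9.87-fold against 1.96-fold, 77.3% of the change). The first-step calls of Scel and Grhl3 were lost in 4 and 8 of 11 leave-outs (log2 2.12 to 2.41 and 2.59 to 3.03). Other members did not pass: the total changes of Krt6b, Krt16, Tgm1 and Tgm3 lay between -0.20 and 0.15, with adjusted p from 0.801 to 0.962. Elf5, a transcription factor of glandular epithelia, was the 1 member that fell, with 2300, 1098, 710 and 1673 in Sca-1Neg, 957, 716, 191 and 186 in Sca-1Lo, and 166, 92.3 and 89.4 in Sca-1Hi samples.

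The 250 bases before the starts of Sprr1a and Ivl are shown because the genes moved together and hold the same motif. From RefSeq (GRCm38.p6), 5' to 3' on the strand of the gene, they read as follows, with capitals for TGANTCA, the motif of AP-1, which reads the same on both strands.
Sprr1a, chr3:92485882-92486131, minus strand: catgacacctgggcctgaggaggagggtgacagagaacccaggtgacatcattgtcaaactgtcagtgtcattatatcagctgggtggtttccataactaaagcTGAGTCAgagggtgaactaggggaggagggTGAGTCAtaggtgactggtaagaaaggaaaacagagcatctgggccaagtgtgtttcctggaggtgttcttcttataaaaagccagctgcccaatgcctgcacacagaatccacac
Ivl, chr3:92573736-92573985, minus strand: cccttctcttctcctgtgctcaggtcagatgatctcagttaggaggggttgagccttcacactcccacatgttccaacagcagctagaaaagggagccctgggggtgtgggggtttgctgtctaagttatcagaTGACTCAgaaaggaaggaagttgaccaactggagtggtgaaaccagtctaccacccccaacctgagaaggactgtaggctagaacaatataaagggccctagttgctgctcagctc
The Sprr1a promoter holds 2 matches and the Ivl promoter 1, which lies 116 bases before the gene start. Of the 24 promoters of the list held in the RefSeq table, 10 have a match (41.7%), against 1856 of 27025 promoters in all (6.87%). The promoters of Duoxa1 and Duox1 hold no match. A match is a description of the letters and shows neither binding nor a cause.

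**Figure D3:**
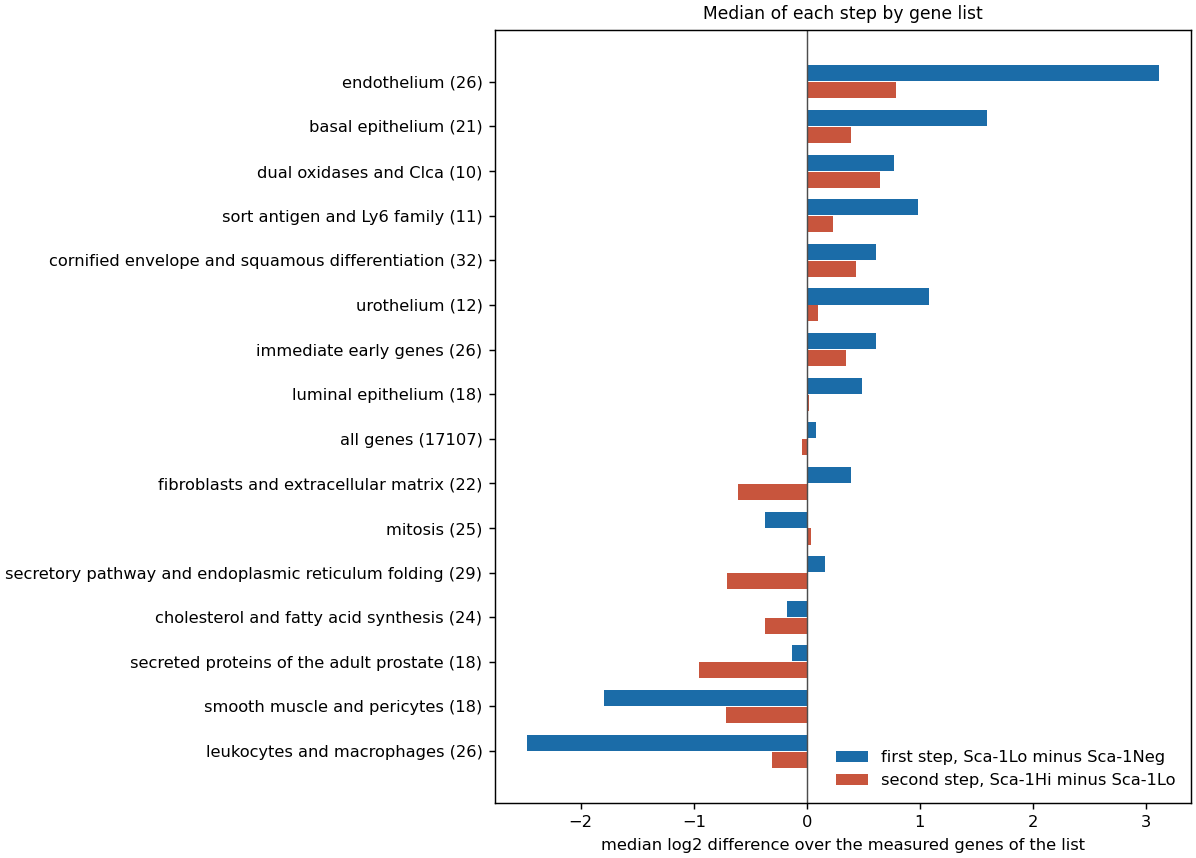
Bars give the median log2 difference over the measured genes of each list (number in brackets) at the first step, Sca-1Lo minus Sca-1Neg (blue), and the second step, Sca-1Hi minus Sca-1Lo (red). The endothelial list has the longest bar upward (3.11) and the leukocyte list the longest downward (-2.48), both at the first step, while for secreted proteins and endoplasmic reticulum folding the second step is the larger.

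Besides Nccrp1, Padi4 and Lipm, which were in the cornified list, and the oxidase Duox1, the second step alone was passed by Clca2 and Syt16 upward and by Gm1673 downward. Clca2, a membrane protein of the same family as Clca1, was at 8.14 to 13.2 in Sca-1Neg and 12.9 to 19.1 in Sca-1Lo samples, all under 20, and at 65.4, 104 and 110 in Sca-1Hi samples, which is at least 4.54-fold at the second step (adjusted p = 0.0133). Syt16, of the synaptotagmin family, had a like pattern at 53.7, 59.8 and 67.7 in Sca-1Hi samples and 4.25 to 12.4 on the other adult arrays (at least 3.005-fold, adjusted p = 0.00688). Nccrp1, an F-box protein of squamous epithelia, was under 20 on all 8 arrays of the lower gates and at 274, 198 and 321 in Sca-1Hi samples, at least 13.0-fold higher than in Sca-1Lo cells (adjusted p = 0.00688). These genes separate the Sca-1Hi arrays from the others and do not separate Sca-1Lo from Sca-1Neg.

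Lipm, an epidermal lipase, stood at 34.6 to 99.1 in Sca-1Neg, 72.9 to 102 in Sca-1Lo and 516 to 820 in Sca-1Hi samples, a second step of 7.05-fold (adjusted p = 0.0255) with 14.1% of the change at the first. Padi4, which turns arginine into citrulline in proteins, was at 20.5, 28.3, 18.8 and 21.9 in Sca-1Neg, 54.0, 30.5, 55.4 and 59.2 in Sca-1Lo, and 252, 306 and 224 in Sca-1Hi samples. Its first step of at least 2.15-fold missed the threshold (adjusted p = 0.0691) and its second was 5.36-fold (adjusted p = 0.0156), and the arrays were in full order. Gm1673, a predicted gene, showed the opposite pattern with 173, 57.2, 55.8 and 73.9 in Sca-1Neg, 147, 55.3, 59.1 and 89.8 in Sca-1Lo, and 8.45, 8.10 and 9.57 in Sca-1Hi samples, at least 4.05-fold lower at the second step (adjusted p = 0.0380). Each of these second-step calls was lost without at least 1 array: in 2 of 11 leave-outs for Syt16 (log2 2.79 and 2.88) and Nccrp1 (6.16 and 6.51), in 3 for Clca2 (2.38 to 2.49), 4 for Padi4 (2.30 to 2.53), 7 for Lipm (2.60 to 2.93) and 9 for Gm1673 (-3.41 to -2.94). Sca-1Hi replicate 3 was among those arrays for every gene. The trend call of Nccrp1 was also lost without any 1 of the Sca-1Hi arrays (total change 4.89 to 5.18), and that of Gm1673 without Sca-1Hi replicate 2 or 3 (-2.80 and -2.69).

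The dual oxidases and Clca proteins as a list had 6 of 10 measured genes higher in the trend, 3 at the first step and 3 at the second (Duox1, Duoxa1 and Clca2), beside 5.92%, 1.29% and 0.0585% of all genes, and Duoxa1 counted in both. This list, too, was written with earlier results of these data known. The mean log2 signal of these 10 genes ran from 5.06 to 5.45 in Sca-1Neg, 5.88 to 6.78 in Sca-1Lo and 7.31 to 7.98 in Sca-1Hi samples. Clca3a1 and Clca3a2 changed mostly at the first step, with 78.0% and 83.4% of their change there. The count of 6 was the same without any 1 array, and none passed at the second step without Sca-1Hi replicate 2 or 3 and 1 without Sca-1Lo replicate 1.

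Of the 39 gene lists, that of endothelium had the most calls at the first step. Of 26 measured endothelial genes 24 were higher in the trend (92.3%, beside 5.92% of all genes) and 22 at the first step (1.29% of all genes), and none at the second. The median change was 3.11 on the log2 scale at the first step and 0.79 at the second. The mean log2 signal of the list ran from 5.99 to 6.84 in Sca-1Neg, from 8.83 to 10.1 in Sca-1Lo and from 9.83 to 10.5 in Sca-1Hi samples, so the arrays of the upper gates overlapped and both stood apart from Sca-1Neg. The number with a higher trend lay between 22 and 24 without any 1 array. Esam and Ednrb were the members that did not pass.

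Pecam1, an adhesion molecule by which endothelium is defined, had signals under 20 on all Sca-1Neg arrays, of 33.3, 43.2, 52.3 and 61.9 in Sca-1Lo, and of 78.7, 72.7 and 91.8 in Sca-1Hi samples. Its first step was at least 2.32-fold (adjusted p = 0.00723) and its second 1.74-fold (adjusted p = 0.613). Cdh5, the cadherin of endothelial junctions, had 75.3, 147, 131 and 152 in Sca-1Neg, 911, 903, 1308 and 1870 in Sca-1Lo, and 1536, 1221 and 2351 in Sca-1Hi samples. Kdr, the main receptor for vascular endothelial growth factor, stood at 123 to 304, 981 to 2253 and 1315 to 2579, and 95.9% of its change lay at the first step. Cldn5, a claudin of endothelial tight junctions, and the transcription factor Sox17 rose further at the second step in their values, by 3.54-fold and 2.26-fold, and neither passed there (adjusted p = 0.322 and 0.421). Both kept the 11 arrays in full order. Of the 3 defining genes, Pecam1 was under 20 in Sca-1Neg samples, while Cdh5 and Kdr had measurable signals there. The part that endothelial cells had in the change of other genes was not tested.

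The genes whose first step had the smallest p-values were Myct1 and Exoc3l2. Myct1, a membrane protein of endothelium in mice, had signals of 18.5, 23.7, 19.02 and 29.7 in Sca-1Neg, 285, 264, 268 and 302 in Sca-1Lo, and 512, 328 and 409 in Sca-1Hi samples. It was at least 12.1-fold higher in Sca-1Lo than in Sca-1Neg cells (adjusted p = 0.000163) and 1.47-fold higher in Sca-1Hi than in Sca-1Lo cells (adjusted p = 0.557). Exoc3l2, related to a subunit of the exocyst, had 13.9, 16.8, 20.9 and 21.9 in Sca-1Neg, 260, 195, 425 and 406 in Sca-1Lo, and 370, 413 and 622 in Sca-1Hi samples, at least 14.8-fold and 1.49-fold. Both reached most of their Sca-1Hi level already in Sca-1Lo cells, with 86.8% and 87.6% of the change at the first step.

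Esm1, a proteoglycan secreted by endothelial tip cells, and Aqp1, a water channel, were highest in the Sca-1Lo mean. Esm1 was under 20 on all Sca-1Neg arrays, at 114, 79.8, 283 and 210 in Sca-1Lo, and at 58.0, 52.3 and 115 in Sca-1Hi samples. It was at least 7.62-fold higher at the first step (adjusted p = 0.00101), and its second step of -1.11 ± 0.67 (SE, log2) did not pass (adjusted p = 0.646). Its trend call was lost in 4 of 11 leave-outs (total change 4.40 to 5.57). Aqp1 had 97.7, 116, 145 and 222 in Sca-1Neg, 1608, 1114, 2181 and 3817 in Sca-1Lo, and 1650, 1451 and 2319 in Sca-1Hi samples, a first step of 14.2-fold and a second of 0.90-fold (adjusted p = 0.963). Aplnr, the apelin receptor, was at least 25.8-fold higher in Sca-1Lo than in Sca-1Neg samples and differed by 0.22 ± 0.52 (SE, log2) between Sca-1Hi and Sca-1Lo samples. With the study-number sets as a block, the bend of Esm1 and Exoc3l2 (adjusted p = 0.0213 each), Aqp1 (0.0435) and Myct1 (0.0442) passed.

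The promoters of Exoc3l2 and Esm1 are shown because both genes changed at the first step, and capitals mark CAGGAA or its reverse complement TTCCTG, a form of the motif that ETS factors bind. The sequences are from RefSeq (GRCm38.p6), 5' to 3' on the strand of the gene.
Exoc3l2, chr7:19463037-19463286, plus strand: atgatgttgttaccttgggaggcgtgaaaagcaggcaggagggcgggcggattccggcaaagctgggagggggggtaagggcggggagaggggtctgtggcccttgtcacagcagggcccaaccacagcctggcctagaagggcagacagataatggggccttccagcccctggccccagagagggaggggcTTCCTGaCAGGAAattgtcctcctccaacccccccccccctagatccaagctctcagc
Esm1, chr13:113209409-113209658, plus strand: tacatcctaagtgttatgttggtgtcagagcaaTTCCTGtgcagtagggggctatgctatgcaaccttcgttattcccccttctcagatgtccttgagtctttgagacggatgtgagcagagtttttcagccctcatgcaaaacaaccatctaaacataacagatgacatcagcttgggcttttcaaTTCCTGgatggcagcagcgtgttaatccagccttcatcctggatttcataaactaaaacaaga
Each promoter holds 2 matches, which in Exoc3l2 stand 1 base apart on opposite strands. Of 14 endothelial promoters listed there, 7 hold a match (50%), against 6866 of 27025 in all (25.4%), and none holds the AP-1 motif. The short motif is common, and the match says nothing about a factor at these genes. The promoters of Duoxa1 and Duox1 hold no match to either motif.

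Basal genes had a larger median change at the first step than at the second, which was not tested. Of 21 measured basal genes 10 were higher in the trend and 4 at the first step (5.92% and 1.29% of all genes), and the median change was 1.60 and 0.39. The count at the first step was 12 without Sca-1Neg replicate 3 and 2 without any 1 of the other Sca-1Neg arrays or of Sca-1Lo replicates 1, 3 and 4. Over all probe sets, those higher at the first step rose from 382 to 1109 without Sca-1Neg replicate 3. Krt5 had signals of 382, 203, 2008 and 1070 in Sca-1Neg, 4468, 2076, 7133 and 7025 in Sca-1Lo, and 5874, 8478 and 9488 in Sca-1Hi samples, and it passed the trend (adjusted p = 0.00978) but neither step. Krt14 and Trp63 were highest in the Sca-1Lo mean and did not pass the trend (adjusted p = 0.0965 and 0.0891): Trp63 had 141, 104, 909 and 440 in Sca-1Neg, 1235, 739, 4313 and 3953 in Sca-1Lo, and 888, 2201 and 1839 in Sca-1Hi samples. In all 3 genes the Sca-1Neg replicates 3 and 4, of the higher study numbers, lay above replicates 1 and 2. Another Krt14 probe set was higher in the trend (total change 1.735, limma, adjusted p = 0.0191), and the remaining probe set did not pass (3.12, adjusted p = 0.140). Krt15 passed at the first step (6.16-fold, adjusted p = 0.0273) and lost that call in 6 of 11 leave-outs (log2 2.23 to 2.67). Itgb4, a subunit of the hemidesmosome integrin, was graded at 2.99-fold and 3.02-fold, and neither step passed.

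Luminal keratins did not follow 1 pattern. Krt8 stood at 2239 to 7239 in Sca-1Neg, 4865 to 7474 in Sca-1Lo and 7476 to 8730 in Sca-1Hi samples and missed the trend (adjusted p = 0.0509), and Krt18 at 1804 to 10300, 3976 to 6398 and 2315 to 3781 showed none (adjusted p = 0.874). Krt7 was higher with the arrays in full order, at 310 to 656, 1577 to 2834 and 4846 to 5884. Of 18 luminal genes 4 were higher and none lower in the trend, beside 5.92% and 4.43% of all genes. The count of 4 was 1 without any 1 of the Sca-1Hi arrays or Sca-1Neg replicate 4, 2 without Sca-1Neg replicate 1 or 2, and 6 without Sca-1Neg replicate 3. In the urothelial list, which covers the lining of the nearby urethra and bladder, 5 of 12 were higher (5.92% of all genes), with a median of 1.08 at the first and 0.10 at the second step. The uroplakin genes Upk1a, Upk1b and Upk2 did not pass the trend (total change -0.27, 1.23 and 0.47, limma, adjusted p = 0.879, 0.0959 and 0.321). Foxq1, a forkhead factor in this list, had 450, 247, 520 and 310 in Sca-1Neg, 1086, 622, 899 and 563 in Sca-1Lo, and 3104, 2338 and 2418 in Sca-1Hi samples, with 37.6% of its change at the first step.

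Other members of the Ly6 family did not all follow Ly6a. Ly6d was 6.18-fold higher at the first step (adjusted p = 0.0117) and 0.96-fold at the second, and it lost its trend call without Sca-1Neg replicate 1 (total change 2.40). Psca, the prostate stem cell antigen, had 147, 129, 46.2 and 7.55 in Sca-1Neg, 749, 588, 385 and 124 in Sca-1Lo, and 2496, 1166 and 672 in Sca-1Hi samples, and it passed the trend (adjusted p = 0.00896) but neither step. Within each gate the Psca signal was lower on the arrays of higher study numbers. In all, 4 of 11 members were higher in the trend (5.92% of all genes), 2 without Sca-1Neg replicate 1 and 6 without Sca-1Neg replicate 3.

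**Figure D4:**
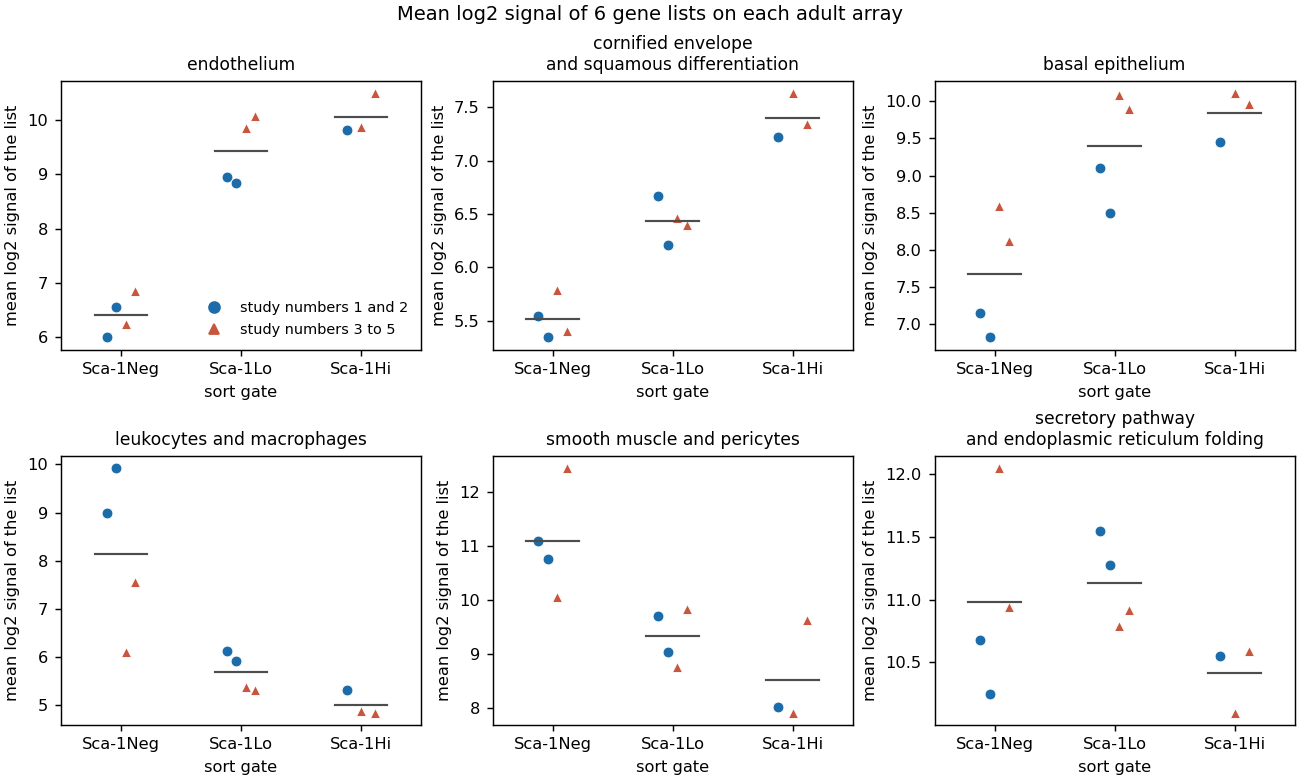
Mean log2 signal of 6 gene lists on each of the 11 adult arrays, by gate, with circles for study numbers 1 and 2, triangles for 3 to 5 and a line at the mean of the gate. The cornified list stands in full gate order, the endothelial list separates Sca-1Neg from the other gates, and the Sca-1Neg arrays spread widely for leukocytes and for endoplasmic reticulum folding.

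Many leukocyte and smooth muscle genes fell along the gates. Of 26 measured genes of leukocytes and macrophages 15 were lower in the trend (background 4.43%) and 4 at the first step (0.392%), with median changes of -2.48 and -0.31. The summed signal of the list ran from 8531 to 92020 on the Sca-1Neg arrays, from 2962 to 10740 on the Sca-1Lo arrays and from 1462 to 3298 on the Sca-1Hi arrays. The spread among the Sca-1Neg arrays was thus wider than the distance from Sca-1Lo to Sca-1Hi. The count of lower members was 8 without Sca-1Hi replicate 2, 9 without Sca-1Neg replicate 1 and 18 without Sca-1Neg replicate 3. At the first step it was 18 without Sca-1Neg replicate 3 and 1 without any 1 of 9 other arrays. Over all probe sets, those lower at the first step rose from 141 to 887 without Sca-1Neg replicate 3.

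Ptprc, the antigen CD45 of all white blood cells, had signals of 1424, 2619, 113 and 627 in Sca-1Neg, 168, 87.7, 135 and 131 in Sca-1Lo, and 12.3, 14.6 and 2.92 in Sca-1Hi samples. It was 5.65-fold lower at the first step (adjusted p = 0.198) and at least 6.34-fold lower at the second (adjusted p = 0.256), and only the total change passed (-6.40, adjusted p = 0.00158). Coro1a, an actin-binding protein of leukocytes, had the same order with 751, 1242, 104 and 507 in Sca-1Neg, 114, 80.8, 90.6 and 85.9 in Sca-1Lo, and 8.74, 11.3 and 20.8 in Sca-1Hi samples. For both genes the lowest Sca-1Neg signal, that of replicate 3, lay within the Sca-1Lo range, and the Sca-1Hi arrays lay below all others. Other leukocyte genes changed at the first step only in their values: the chemokine Ccl3 had 24920, 31230, 1583 and 3421 in Sca-1Neg, 87.2, 86.8, 195 and 218 in Sca-1Lo, and 125, 102 and 211 in Sca-1Hi samples. Ccl3 was 60.2-fold lower at the first step (adjusted p = 0.00611) and differed by 0.06 ± 0.90 (SE, log2) at the second. C1qa and Cx3cr1, of macrophages, also passed at the first step and not in the trend, and each lost that call in 10 of 11 leave-outs (log2 -5.01 to -3.78 and -4.47 to -3.30).

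Smooth muscle and pericyte genes were lower in 14 of 18 cases in the trend and in 1 at the first step (Notch3), beside 4.43% and 0.392% of all genes, with median changes of -1.80 and -0.72. The count of 14 was 3 without Sca-1Hi replicate 2, 4 without Sca-1Neg replicate 1, 6 without Sca-1Hi replicate 1, 7 without Sca-1Neg replicate 4 and 9 without Sca-1Neg replicate 2. Over all genes, those with a lower trend also fell, from 758 to 292 without Sca-1Hi replicate 2. The first-step count was 7 without Sca-1Neg replicate 3 and 0 within the arrays of study numbers 3 to 5. Over all probe sets, those lower at the first step were 141 with all adult arrays, 887 without Sca-1Neg replicate 3 and 21 within numbers 3 to 5. Cspg4, the pericyte antigen NG2, had 850, 708, 554 and 6702 in Sca-1Neg, 206, 166, 157 and 199 in Sca-1Lo, and 86.2, 105 and 124 in Sca-1Hi samples, in full downward order. Myh11, the smooth muscle myosin, had 7107, 4333, 3563 and 13900 in Sca-1Neg, 2319, 1322, 798 and 2147 in Sca-1Lo, and 439, 432 and 2356 in Sca-1Hi samples, and its trend call was lost without Sca-1Hi replicate 2 (total change -2.83). Acta2, the smooth muscle actin, did not pass on its brightest probe set at 10630 to 13280, 7151 to 11820 and 5385 to 12130 (adjusted p = 0.166). Its other probe sets were lower in the trend (total change -3.13 and -2.99, limma, adjusted p = 0.0148 and 0.0416). Notch3 lost its first-step call in 9 of 11 leave-outs (log2 -2.88 to -2.17) and its trend call without Sca-1Neg replicate 1 (total change -2.87).

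The falling genes with the smallest p-values of the stepwise test, none of which passed it, included Slc41a2 and Ppm1e. Slc41a2, a magnesium transporter, had 804, 509, 563 and 634 in Sca-1Neg, 413, 320, 144 and 186 in Sca-1Lo, and 128, 52.5 and 75.3 in Sca-1Hi samples, 2.54-fold and 3.06-fold lower at the steps. Ppm1e, a protein phosphatase, had 225, 153, 117 and 623 in Sca-1Neg, 66.2, 37.5, 35.1 and 43.97 in Sca-1Lo, and 6.12, 4.02 and 15.5 in Sca-1Hi samples, 5.06-fold and at least 2.21-fold lower. Both were in full downward order and passed the trend (adjusted p = 0.00128 and 0.000573). Against these graded genes, Sfrp5, a secreted inhibitor of Wnt ligands, passed at the first step and not at the second, with 796, 1793, 565 and 2104 in Sca-1Neg, 153, 196, 90.7 and 92.4 in Sca-1Lo, and 119, 113 and 113 in Sca-1Hi samples (9.07-fold lower, adjusted p = 0.00399, and 1.10-fold at the second, adjusted p = 0.972). Klhl30, of a family of ubiquitin ligase adaptors, likewise stood at 143 to 630 in Sca-1Neg and 23.0 to 34.3 on all other adult arrays. Alas2, the first enzyme of heme synthesis in red cells, was 18.5-fold lower at the first step (adjusted p = 0.00923), and it lost its trend call without Sca-1Neg replicate 1 (total change -3.85).

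The secreted proteins of the adult prostate fell at the second step in their values. Of 18 measured genes 6 were lower in the trend (4.43% of all genes) and none passed at a step, and the median change was -0.13 at the first step and -0.95 at the second. There none of the 18 was above 0, against 7783 of all 17107 genes. Svs2, a seminal vesicle secretory protein, had 8746, 6256, 6761 and 10260 in Sca-1Neg, 10450, 6538, 4847 and 4713 in Sca-1Lo, and 3223, 572 and 1263 in Sca-1Hi samples, and its trend call was lost without Sca-1Hi replicate 2 or 3 (total change -2.26 and -1.77). Svs6 had 4017, 2890, 2184 and 4388 in Sca-1Neg, 3485, 1742, 186 and 299 in Sca-1Lo, and 300, 79.8 and 209 in Sca-1Hi samples, so that the Sca-1Lo arrays of the lower study numbers were near Sca-1Neg and those of the higher numbers near Sca-1Hi. Ceacam10 was 35.4-fold lower over both steps, with 39.9% of its change at the first. Other secreted genes did not pass: Pbsn, probasin, was at 8798 to 15330 in Sca-1Neg, 9067 to 16870 in Sca-1Lo and 8701 to 14170 in Sca-1Hi samples, and Msmb at 7583 to 16030, 10170 to 15230 and 8124 to 14200 (trend adjusted p = 0.932 and 0.826). The number of lower members was 3 without Sca-1Hi replicate 2 or 3.

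Where the first step of this list lay depended on the set of arrays. Within study numbers 1 and 2 the median first step was 0.61, with 4 members higher, and within numbers 3 to 5 it was -0.83, while the second step was -1.11 and -0.55. The 29 measured genes of the secretory pathway and endoplasmic reticulum folding behaved alike: their median first step was 0.16 over all adult arrays, 0.90 within numbers 1 and 2 and -0.41 within numbers 3 to 5, and their second step was -0.71, -0.92 and -0.51. None of these 29 genes passed the trend or a step over the 11 arrays, though all 29 were lower in Sca-1Hi than in Sca-1Lo means and 21 were higher in Sca-1Lo than in Sca-1Neg means. Of all 17107 genes, 9960 were higher in Sca-1Lo than in Sca-1Neg means and 7783 in Sca-1Hi than in Sca-1Lo means. Hspa5, the main chaperone of this compartment, had 5689, 4243, 11660 and 7101 in Sca-1Neg, 9591, 8023, 8268 and 7501 in Sca-1Lo, and 6025, 4953 and 5853 in Sca-1Hi samples, so that the Sca-1Lo arrays lay above the Sca-1Hi arrays and inside the Sca-1Neg range. With quantile normalization the median first step of this list was -0.07.

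In the Wnt list 4 of 36 genes were higher and 1 lower in the trend, in the Hedgehog list 2 of 15 and 1, and in the Hox list 6 of 29 and 1, beside 5.92% higher and 4.43% lower of all genes. Without Sca-1Neg replicate 4 the higher Wnt genes were 7 and without Sca-1Neg replicate 3 the lower ones 3, and the higher Hox genes were 2 without Sca-1Hi replicate 2 or 3 or Sca-1Neg replicate 1 and 3 without Sca-1Neg replicate 2 or 4. Wnt10a, a Wnt ligand, was under 20 on all Sca-1Neg arrays, at 31.5, 20.0, 43.2 and 51.4 in Sca-1Lo, and at 102, 52.7 and 107 in Sca-1Hi samples, and its first-step call (adjusted p = 0.025) was lost in 6 of 11 leave-outs (log2 1.70 to 2.02). Wnt4 and the hedgehog ligand Shh were higher in the trend (adjusted p = 0.00734 and 0.0108) with no step passed. Shh had 1232, 767, 1127 and 1073 in Sca-1Neg, 2195, 1153, 4285 and 4279 in Sca-1Lo, and 2956, 4923 and 5736 in Sca-1Hi samples. Ahr, the receptor for dioxin, was 2.47-fold and 1.96-fold higher at the steps, Hoxa5 2.56-fold and 2.49-fold, and the glutathione transferase Gsto1 3.35-fold and 1.99-fold. Of these, each passed the trend and none passed a step.

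Of 18 measured genes of the steroid receptor list 2 were higher and 2 lower in the trend (11.1% each, beside 5.92% and 4.43% of all genes), with a median total change of -0.15. Pparg, a receptor of lipid metabolism and urothelial differentiation, was at 31.9, 27.6, 8.33 and 16.3 in Sca-1Neg, 44.4, 44.5, 50.4 and 47.1 in Sca-1Lo, and 134, 90.5 and 79.0 in Sca-1Hi samples, in full order. Pgr, the progesterone receptor, was in full downward order at 199, 157, 133 and 336 in Sca-1Neg, 114, 132, 89.7 and 91.7 in Sca-1Lo, and 43.98, 48.7 and 65.9 in Sca-1Hi samples, 1.84-fold and 2.02-fold lower. Its other probe sets did not pass the trend (total change -0.85 and -0.51, limma, adjusted p = 0.2865 and 0.5859). Esr1, the estrogen receptor alpha, fell mostly at the second step, with 604, 530, 1036 and 1192 in Sca-1Neg, 568, 589, 398 and 706 in Sca-1Lo, and 177, 79.5 and 151 in Sca-1Hi samples. Of the change of Esr1 19.7% lay at the first step, and the second step did not pass (adjusted p = 0.132). Pparg, Pgr and Esr1 passed the trend (adjusted p = 0.00342, 0.00380 and 0.00515). Esr2, the estrogen receptor beta, was higher in the trend (total change 2.35, limma, adjusted p = 0.00871), with log2 steps of 1.60 and 0.70.

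None of 25 mitosis genes, 24 genes of oxidative phosphorylation or 26 immediate early genes passed the trend, beside 5.92% higher and 4.43% lower of all genes. The immediate early genes, which respond to stress and to tissue dissociation, still had a median total change of 1.05 with 23 of 26 above 0 at each step. Of all 17107 genes, 9960 were above 0 at the first step and 7783 at the second. The number past the trend changed with the arrays: 3 immediate early genes were higher without Sca-1Lo replicate 2. With the 2 sets of study numbers as a block 6 immediate early genes were higher, 1 mitosis gene was higher and 1 gene of oxidative phosphorylation lower. In that fit 1466 of all 17107 genes were higher and 1183 lower. Of 24 genes of cholesterol and fatty acid synthesis 6 were lower and 1 higher (4.43% and 5.92% of all genes), and the lower ones were 1 without Sca-1Hi replicate 2, 2 without Sca-1Hi replicate 3 or Sca-1Neg replicate 4 and 3 without Sca-1Neg replicate 1. Of 22 fibroblast genes 1 was higher and 1 lower, and their median was 0.39 at the first and -0.61 at the second step. Genes with a peak or trough in Sca-1Lo were looked for and none passed without the block, against 4 with it (Aqp1, Esm1, Spon2 and Nccrp1). The smallest p-values of such a pattern included Krt86, with 9.73 to 12.5 in Sca-1Neg, 17.9 to 22.9 in Sca-1Lo and 7.00 to 10.8 in Sca-1Hi samples, so close to 20 that no fold is given. Fabp4, a fatty acid carrier of capillaries and fat cells, had 441, 387, 219 and 398 in Sca-1Neg, 4276, 2242, 3032 and 4142 in Sca-1Lo, and 4685, 995 and 2239 in Sca-1Hi samples, and its higher trend call was lost in 6 of 11 leave-outs (total change 2.42 to 3.18).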

How the data were processed

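RNA of each sample was labelled after 2 rounds of amplification and hybridized by the authors to its own Affymetrix MOE430 2.0 array. The deposited intensity values are linear PLIER signals, which the authors computed in ArrayAssist. Their methods call them normalized and do not name the step between arrays. The submitters' notes also name MAS5. The table holds 45101 probe sets, of which 34945 have 1 gene in the platform annotation, 932 several and 9088 none. A further 72 were named through the study's supplementary tables, Ly6a among them. For each gene the probe set of highest average log2 signal was used.

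Trend, steps, bend and stepwise tests were run on log2 signals without an added constant, in limma 3.58.1 (R 4.3.3, lmFit and eBayes), on probe sets that exceeded 20 on 1 or more of the 11 adult arrays. The stepwise test takes the larger p of both steps where they have the same sign. Study numbers, from a supplementary table, were assigned to arrays whose values matched it. Tables and figures used Python 3.11.15, pandas 2.3.3, scipy 1.17.1 and matplotlib 3.10.9. The tests were checked on simulated data with independent noise and 1 spread per probe set over all gates. That check does not cover the shared deviations of the study-number sets or a spread that differs between gates. The 3 or 4 arrays per gate limit the precision of the tests. The array's probes gave no coordinates, and those printed are of RefSeq genes.

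Members, gene lists (39, with 771 of 829 entries measured) and motifs were chosen with earlier results of these data known. The genes named are Ly6a, up to 15 with the largest slope in each direction and no overlap of Sca-1Hi and Sca-1Neg, up to 8 for each shape (5 where none passed), up to 4 called genes and the first 3 markers of each list, not all of which are printed. Psapl1, Padi4, Sprr1a, Scel, Trp63, Elf5, Hspa5, Spon2, Calml3, C1qa, Cx3cr1, Krt6b, Krt16, Tgm1, Tgm3, Duoxa2, Clca3a2, Esam and Ednrb were added after their values were seen.

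Alternatives were a filter of 3 arrays above 20 or none, an added constant of 16, quantile normalization, centring by the 75th percentile, all 14 arrays, the replicate number, the study number or the study-number sets as a block, either set alone, no fold minimum, array weights, limma's robust intensity trend, the Sca-1Hi minus Sca-1Neg contrast, the methods' t-test, the mean of a gene's probe sets, and each array left out.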

Additional observations from a re-analysis of the deposited data

Results flagged for a closer look

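In groups of 4 adult samples, the highest or lowest value of 84 genes was set against the others, 168 groups in all, and 3 stood apart from the rest of their gate. Chance flags about 1 in 20 groups. Heyl, a target of Notch signalling, was 174 on Sca-1Lo replicate 4, against 93.7 to 101 on the other Sca-1Lo arrays. Notch3 was 7742 on Sca-1Neg replicate 4, against 1632 to 2108 on the others. Padi4 was 30.5 on Sca-1Lo replicate 2, against 54.0 to 59.2 on the others.

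The UGE arrays are on no gate. Of the 11 genes that passed at the second step, 7 were on all 3 UGE arrays above every Sca-1Neg array. The share of all genes in that order was not counted, and the 11 were picked by their second step. The 7 are therefore given as values with no test, and no link between UGE and Sca-1Hi cells is drawn from them. In UGE samples Dapl1 averaged 2095 (1280 to 3535), Duoxa1 810 (542 to 1323), Duox1 628 (382 to 916) and Psapl1 685 (440 to 1067). Clca2 averaged 210 (130 to 302) in UGE samples, Syt16 63.9 (43.7 to 79.6) and Padi4 49.9 (38.8 to 63.3).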

How the results depend on the processing

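Counts here are of probe sets, of which 4519 passed the trend (3010 higher, 1509 lower), 523 the first step, 12 the second and 0 the bend or the stepwise test. With 16 added before log2 the second step had 26 and the bend 1. With quantile normalization the second step had 20, and 2939 were higher and 2307 lower in the trend, so the higher share was 56.0% in place of 66.6%. With all 14 arrays the first step had 799 and the second 27. With the replicate block the first step had 810 and the bend 1, and the trend 4795. The replicate numbers do not match the study numbers in every gate: Sca-1Hi replicate 2 has study number 3, and replicate 2 of Sca-1Lo and Sca-1Neg has number 2. Deviations from the gate means of arrays with the same replicate number correlated at -0.466 to 0.573 (median 0.259), over 0.1 in 7 of 10 pairs. With the study's own numbers, 7 of 8 pairs exceeded 0.1 (-0.0494 to 0.573). Each study number as a replicate block, chosen after seeing the data, gave 2025 for the trend (76.2% higher), 1194 for the first step and 1 for the second, and the only adult array of number 3 then carried no weight. With the study-number sets as a block, counts were 7170 for the trend, 1685 and 41 for the steps and 11 for the bend. Study numbers 1 and 2 alone, with 1 Sca-1Hi array assumed to vary like the others, gave 2659 for the trend, 51.3% of them higher, 3049 for the first step and 69 for the bend. Numbers 3 to 5 alone gave 1878 for the trend, 237 for the first step and 0 for the second. Array weights gave 10070 for the trend, 7217 and 794 for the steps, 295 for the bend and 6 for the stepwise test. The methods' t-test, run on Sca-1Hi against Sca-1Neg without Sca-1Lo and Benjamini-Hochberg adjusted over all 40612 probe sets, gave 305. The filters on variation and significance that the study's methods describe before it were not applied, so the 305 is not the result of that procedure. The cause of these differences was not tested.

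Leaving out each array in turn, the trend had from 1854 (without Sca-1Hi replicate 2) to 5349 (without Sca-1Neg replicate 3), the first step from 172 (without Sca-1Lo replicate 4) to 1996 (without Sca-1Neg replicate 3), the second from 0 (without Sca-1Hi replicate 3) to 19 (without Sca-1Neg replicate 3), and arrays in full order from 607 to 929, each with fewer arrays to order than the 535 of all 11. The bend and stepwise tests stayed at 0. The Gapdh slope lay between 0.393 and 0.573. No named gene that passed the trend reversed it under any alternative run, but the second step, 11 higher and 1 lower, had 5 higher and 9 lower with the replicate block, 22 and 19 with the study-number sets as a block, 1 and 10 with study numbers 1 and 2 alone, and 6 and 5 without Sca-1Hi replicate 1. Filters of 0 or 3 arrays above 20, centring, no fold minimum and the intensity trend kept every count within 1.5 times. Other probe sets of the named genes gave the same call in 38 genes, another in 39 and the opposite in 1. Among the 39 were Acta2, Ahr, Cdh5, Ceacam10, Clca1, Fabp4, Heyl, Hoxa5, Ivl, Krt8, Krt14, Myct1, Pgr, Sfrp5 and Shh.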
